A study of Mus musculus with 18 samples.

Results

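The 8 genes described here take part in retinoid and carotenoid metabolism: Bco1, Bco2, Rbp4, Lrat, Retsat, Adh1, Adh4 and Aldh1a1. They were taken by gene name from a list, 8 of the 54532 genes in each of 2 tables of liver RNA-seq, and all 8 had enough signal to be tested in both tables. The list was chosen by gene function with the measured diet differences of both comparisons already known, and no cutoff on them was recorded. The values of the 8 genes are therefore given as a description, without p-values. Other genes of the pathway are given with their tests, but their lists too were chosen with earlier results of these data known. Their p-values and counts are therefore descriptive as well.

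Livers came from male wild-type C57BL/6J mice that entered the study at 1 month of age and were fasted overnight before harvest. In the first experiment, 5 mice ate the control diet (Ctrl) and 5 ate the vitamin B2-deficient diet (B2D) for 1 month. In the second, 4 Ctrl+FF and 4 B2D+FF mice ate the same diets for 9 weeks, received fenofibrate (FF), a drug that activates the nuclear receptor PPARα, by gavage in weeks 7 to 9, and were given a last dose 2 hours before harvest. The study compared the diets to ask what the liver does when dietary riboflavin (vitamin B2), the source of the cofactor FAD, is withdrawn, and what fenofibrate changes. Every mouse gave 1 library, and no mouse received fenofibrate for 1 month or went without it for 9 weeks, so drug, time on diet and table cannot be told apart when levels of the 2 experiments are set side by side.

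The liver takes up dietary vitamin A and provitamin A carotenoids, stores vitamin A as retinyl esters in hepatic stellate cells and releases retinol to the blood. Retinol can be esterified, saturated to dihydroretinol, or oxidized first to retinal by alcohol and short-chain dehydrogenases and then to retinoic acid, the ligand of nuclear receptors, by retinal dehydrogenases. Retinol saturase, the product of Retsat, is a flavoprotein that binds FAD, which ties one step of the pathway directly to vitamin B2.

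Libraries held between 15320729 and 21898502 reads on genes. Mice of the same group correlated at Pearson's r between 0.955 and 0.989 over genes on the log2(FPKM + 1) scale, and no pair of libraries was identical. FPKM divides the fragments of a gene by its length in kilobases and by a library scale, so that levels can be compared between genes. Fold changes are differences of log2(FPKM + 1), B2D diet minus control diet, with the standard error (SE) and 95% interval of a limma fit across all genes, and this scale understates the change of genes with few FPKM such as Bco1, Bco2 and Lrat. A gene was called where its p-value, adjusted over all genes tested, was under 0.05. Fell, rose, lower and higher describe the B2D diet against the control diet. A call with fenofibrate is one of B2D+FF against Ctrl+FF and not of the drug.

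Adh4 and Bco2 were lower with the B2D diet in both experiments, with every B2D mouse below every control mouse of the same experiment. Of all genes tested, 2.89% showed such non-overlap, lower with B2D, without fenofibrate and 6.44% with it. Both genes were called in both comparisons, but with fenofibrate each call held in only 1 of 8 fits with a library left out. Adh1 was lower with smaller differences that were not called, and Aldh1a1, Rbp4, Lrat, Retsat and Bco1 had differences whose 95% interval included 0 in both experiments. Thus 2 of the 8 genes were called lower and 0 higher in B2D versus Ctrl, where 313 of 11574 genes tested (2.70%) were called, 1.94% lower and 0.769% higher. With fenofibrate, 2 of 8 were again called lower and 0 higher, where 529 of 11878 genes (4.45%) were called, 2.21% lower and 2.24% higher. Because the genes were listed with these results known, nothing is read from the counts.

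**Figure D1:**
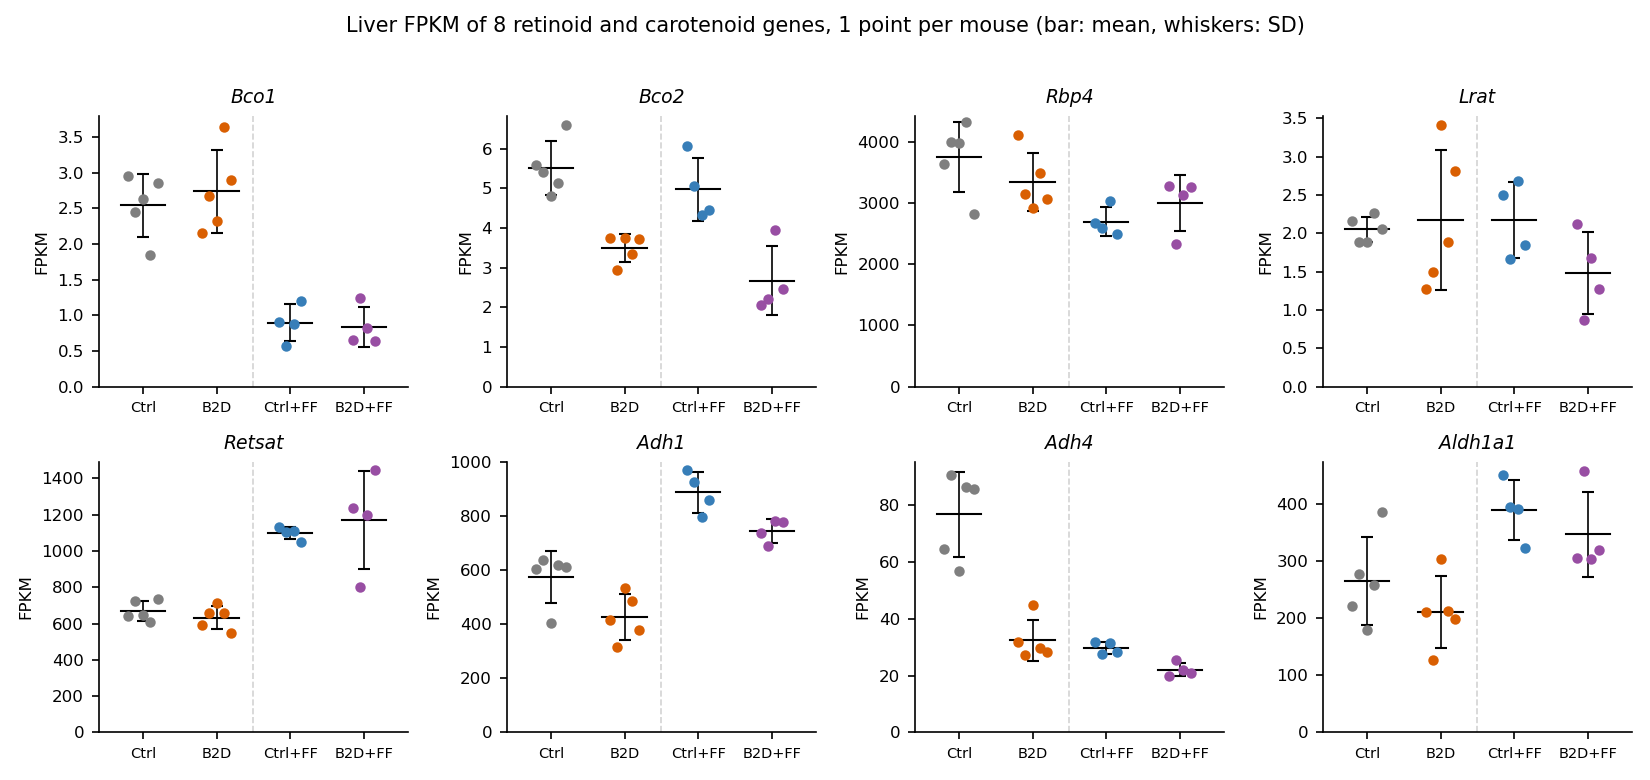
FPKM (y axis, starting at 0) of the 8 genes in each mouse, with groups on the x axis, a bar for the mean and whiskers for the SD; the dashed line separates the 2 experiments, which were normalized separately. The B2D points lie below all control points of the same experiment for Bco2 and Adh4, and for Adh1 in the fenofibrate experiment, while Bco1, Rbp4, Lrat, Retsat and Aldh1a1 overlap.

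Levels ranged widely, from 0.573 FPKM for Bco1 in a Ctrl+FF mouse to 4331 FPKM for Rbp4 in a Ctrl mouse. By mean FPKM in Ctrl mice, Rbp4 ranked 15, Retsat 82, Adh1 94, Aldh1a1 192 and Adh4 614 among all genes listed, whereas Bco2 ranked 4562, Bco1 6975 and Lrat 7630. Between 54785 and 111487 reads lay behind each Rbp4 value, and between 24 and 180 behind each Bco1 value.

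The 2 carotenoid oxygenases behaved differently. BCO1 splits β-carotene symmetrically into retinal, whereas BCO2 is a mitochondrial enzyme that cleaves carotenoids off centre. Bco2 (ENSMUSG00000032066) lies on the minus strand at chr9:50533087-50555181 of GRCm38 (mm10), and Bco1 (ENSMUSG00000031845) on the plus strand at chr8:117095854-117133720. The Ctrl mice held 5.60, 5.40, 4.81, 5.14 and 6.59 FPKM of Bco2, and the B2D mice held 3.74, 2.93, 3.74, 3.33 and 3.73. The groups did not overlap, the highest B2D mouse lying more than 1 FPKM below the lowest Ctrl mouse. Mean Bco2 was 5.51 ± 0.674 for Ctrl and 3.49 ± 0.360 for B2D (n = 5 mice per group, SD), a change of -36.6%, with a log2 fold change of -0.53 (SE 0.097, 95% interval -0.74 to -0.32).

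With fenofibrate, Bco2 stood at 6.07, 5.05, 4.32 and 4.46 FPKM in Ctrl+FF mice and at 2.05, 2.21, 3.95 and 2.46 in B2D+FF mice. Again the groups did not overlap, although B2D+FF 3 came close to the lowest controls. The log2 fold change was -0.72 (SE 0.159, 95% interval -1.08 to -0.36), with means of 4.97 ± 0.797 and 2.67 ± 0.870 FPKM (n = 4 mice per group, SD). Between 74 and 292 reads lay behind each Bco2 value over the 18 mice. This call was often lost when a library was left out. Bco2 stayed called in 10 of 10 such fits of B2D versus Ctrl but in only 1 of 8 of B2D+FF versus Ctrl+FF. Log2 fold changes in those 8 fits lay between -0.88 and -0.64, and the cause of the lost calls was not tested. An antisense gene, Gm47077, overlaps exons of Bco2 and was at 3 reads or fewer in every library.

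Bco1 did not follow Bco2. Ctrl mice held between 1.84 and 2.96 FPKM of Bco1 with a median of 2.63, and B2D mice between 2.16 and 3.65 with a median of 2.67. The log2 fold change was 0.07 (SE 0.126, 95% interval -0.20 to 0.35) without fenofibrate and -0.05 (SE 0.135, 95% interval -0.35 to 0.25) with it. Both signs changed when either of 2 mice was left out (Ctrl 4 or B2D 4 in the first experiment, Ctrl+FF 4 or B2D+FF 4 in the second), so no direction is given. In the fenofibrate experiment, Bco1 was at 0.911, 0.573, 0.882 and 1.21 FPKM in the Ctrl+FF mice and at 0.646, 1.24, 0.817 and 0.633 in B2D+FF mice. All 8 of these values lay below the lowest value of the 10 mice without fenofibrate, an order that holds for no other of the 8 genes. Mean Bco1 was 2.55 ± 0.442 and 2.74 ± 0.583 FPKM in the first experiment (n = 5 mice per group, SD) and 0.893 ± 0.259 and 0.833 ± 0.282 FPKM in the second (n = 4 mice per group, SD). Bco2 per 100 FPKM of Bco1 was 221 ± 38.5 in Ctrl and 133 ± 34.3 in B2D (n = 5 mice per group, SD), without overlap, and 602 ± 222 in Ctrl+FF and 342 ± 129 in B2D+FF (n = 4 mice per group, SD), with overlap.

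The 250 bases upstream of the RefSeq start sites of these oxygenases and of Adh4 are shown, since Adh4 and Bco2 were lower in both experiments and Bco1 was not, and since fenofibrate acts on PPARα, which pairs with the retinoid X receptor on direct repeats of AGGTCA. All 8 genes matched the RefSeq promoter table, built on GRCm38.p6. The RefSeq starts lie 11 (Bco1), 43 (Bco2) and 31 (Adh4) bases inside the genes at the coordinates given for the expression values. The last bases of each stretch therefore fall within the gene so placed. Sequences run 5′ to 3′ on the gene's strand and end 1 base before the start, and capitals mark AGGTCA half-sites, read on either strand, and TATAAA. Bco1 covers chr8:117095615-117095864 (plus strand), Bco2 chr9:50555139-50555388 (minus strand) and Adh4 chr3:138415247-138415496 (plus strand).
Bco1: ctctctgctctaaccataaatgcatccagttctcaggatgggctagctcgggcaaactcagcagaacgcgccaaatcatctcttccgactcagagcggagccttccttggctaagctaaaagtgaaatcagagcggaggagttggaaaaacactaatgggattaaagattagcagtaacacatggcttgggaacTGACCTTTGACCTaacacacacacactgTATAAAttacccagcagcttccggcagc
Bco2: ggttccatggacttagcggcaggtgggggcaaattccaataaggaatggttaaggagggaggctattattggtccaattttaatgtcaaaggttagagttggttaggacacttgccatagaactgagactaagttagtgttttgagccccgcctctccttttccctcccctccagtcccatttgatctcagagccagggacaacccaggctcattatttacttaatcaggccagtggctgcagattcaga
Adh4: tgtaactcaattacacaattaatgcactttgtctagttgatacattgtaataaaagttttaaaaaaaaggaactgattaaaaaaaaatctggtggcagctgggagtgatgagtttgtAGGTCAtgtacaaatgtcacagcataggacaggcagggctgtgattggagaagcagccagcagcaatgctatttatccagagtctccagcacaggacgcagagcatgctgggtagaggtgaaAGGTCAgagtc

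The Bco1 stretch held a full direct repeat with 1 base between its repeats (DR1, AGGTCANAGGTCA, on the other strand) at positions -56 to -44 from the start, and a TATAAA at -28 to -23. Over all 32851 promoter windows of the same length, DR1 was found in 11 (0.0335%), AGGTCA alone, which every DR1 contains, in 14% and TATAAA in 12.4%. In Adh4 the half-site AGGTCA appeared at -133 to -128 and at -11 to -6, the latter inside the gene as placed for the expression values. In the Bco2 stretch no exact match to the searched letters appeared. Retsat held TATAAA at -30 to -25. Direct repeats with 2 or 5 bases between the repeats, AGGTCANNAGGTCA and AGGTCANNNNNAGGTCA, were found in 3 promoters each and in none of the 8 genes. These are exact letter matches, with no mismatch allowed in a repeat. A match does not show binding, and a missing match does not show that binding is absent.

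Adh4 encodes an alcohol dehydrogenase that oxidizes retinol and other long-chain alcohols, and showed the largest difference of the 8 genes without fenofibrate. It lies on the plus strand at chr3:138415466-138430892 (ENSMUSG00000037797). Adh4 was at 64.5, 90.5, 57.0, 86.3 and 85.6 FPKM in Ctrl mice and at 31.9, 27.4, 45.0, 29.6 and 28.3 FPKM in B2D mice. The highest B2D value lay under the lowest Ctrl value, and B2D 3 stood above the other 4 B2D mice. Means were 76.8 ± 15.0 and 32.4 ± 7.22 FPKM (n = 5 mice per group, SD), a change of -57.8%, for a log2 fold change of -1.22 (SE 0.168, 95% interval -1.58 to -0.85). Adh4 was called under each of 18 other settings, left-out libraries included, with log2 fold changes between -1.34 and -1.10.

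With fenofibrate, Adh4 was at 32.0, 27.7, 31.4 and 28.2 FPKM in the Ctrl+FF mice and at 20.04, 25.5, 22.0 and 21.0 FPKM in B2D+FF mice. These groups did not overlap either, but the gap between them was about 2 FPKM. Means were 29.8 ± 2.21 and 22.1 ± 2.40 FPKM (n = 4 mice per group, SD), and the log2 fold change was -0.42 (SE 0.098, 95% interval -0.64 to -0.19). Here the call held in 7 of 16 other settings and in 1 of 8 fits with a library left out. The diet effect with fenofibrate minus that without was 0.80 on the log2 scale (SE 0.213, 95% interval 0.36 to 1.25), and this difference was not called in a fit of all 18 libraries in which 27 of 11862 genes (0.228%) were called, 0.126% higher and 0.101% lower. It was called with array weights and without B2D 3, so its position relative to the threshold depended on that mouse. The order of mean levels for Adh4 was Ctrl, B2D, Ctrl+FF and B2D+FF, with B2D and Ctrl+FF overlapping.

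Adh1 encodes the abundant hepatic alcohol dehydrogenase, which oxidizes both ethanol and retinol (ENSMUSG00000074207, plus strand, chr3:138260991-138290698). Ctrl mice held 605, 638, 405, 619 and 613 FPKM of Adh1, and B2D mice 417, 317, 535, 485 and 379. Means were 576 ± 96.2 and 427 ± 85.9 FPKM (n = 5 mice per group, SD). The groups overlapped through Ctrl 3, which lay well below the other Ctrl mice, and B2D 3, the highest B2D mouse. The log2 fold change was -0.44 (SE 0.170, 95% interval -0.81 to -0.07), was not called, and was -0.56 without Ctrl 3. With fenofibrate, Adh1 was at 969, 927, 796 and 858 FPKM in the Ctrl+FF mice and 736, 688, 783 and 778 in B2D+FF mice, without overlap, for a log2 fold change of -0.25 (SE 0.104, 95% interval -0.48 to -0.01) that was not called. Means there were 887 ± 76.3 and 746 ± 44.5 FPKM (n = 4 mice per group, SD). Non-overlap was common in that comparison, applying to 14.3% of genes tested (6.44% lower and 7.82% higher), against 4.98% (2.89% lower and 2.08% higher) in B2D versus Ctrl. Exons of Adh1 and Retsat overlap antisense genes, Gm16559 and Gm45053, whose reads cannot be told apart without strand information. Their highest values were 4.97 and 5.62 FPKM, a small part of the level of either gene.

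Adh1 and Adh4 lie 124767 bases apart in a cluster of alcohol dehydrogenase genes on the plus strand of chromosome 3. Adh4 per 100 FPKM of Adh1 was 13.4 ± 1.52 in Ctrl and 7.65 ± 0.993 in B2D (n = 5 mice per group, SD), with a Ctrl range of 10.7 to 14.2 above a B2D range of 6.11 to 8.63. With fenofibrate the ratio was 3.38 ± 0.408 in Ctrl+FF and 2.99 ± 0.487 in B2D+FF (n = 4 mice per group, SD), and the groups overlapped. Adh5, the glutathione-dependent formaldehyde dehydrogenase that starts 12200 bases beyond Adh4, averaged 56.8 FPKM with the control diet and 49.3 with B2D (log2 fold change -0.20, SE 0.097, limma adjusted p = 0.293). In the fenofibrate experiment Adh5 averaged 56.9 and 65.6 FPKM (0.20, SE 0.106, limma adjusted p = 0.327). Adh4 per 100 FPKM of Adh5 ran from 99.5 to 156 in Ctrl against 50.7 to 97.5 in B2D, and from 50.4 to 53.7 against 28.8 to 46.7 with fenofibrate, without overlap in either experiment. Adh7, an alcohol dehydrogenase best known from the stomach, had log2 fold changes of -0.25 (SE 0.121, limma adjusted p = 0.293) and -0.08 (SE 0.104, limma adjusted p = 0.719), and it shares exonic positions with the antisense gene 0610031O16Rik. That gene stood at 11.7 to 19.7 FPKM in Ctrl and 5.58 to 9.71 in B2D mice, and at 10.5 to 16.5 and 4.87 to 8.06 FPKM with fenofibrate, above Adh7 in every mouse, and without strand information reads of the pair cannot be told apart. The pseudogene Adh6-ps1, the nearest gene upstream of Adh4, was named after its values were seen. It was at 9.37, 16.8, 8.65, 9.53 and 7.44 FPKM in Ctrl and 3.44, 5.87, 3.80, 6.39 and 6.07 in B2D mice, without overlap, and fell (log2 fold change -0.87, SE 0.208, limma adjusted p = 0.0473), a call kept in 7 of 18 other settings. With fenofibrate its groups overlapped (-0.13, SE 0.245, limma adjusted p = 0.811). Adh6a and Adh6b were nearly silent, at no more than 1 and 5 reads in any library, and were not tested.

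**Figure D2:**
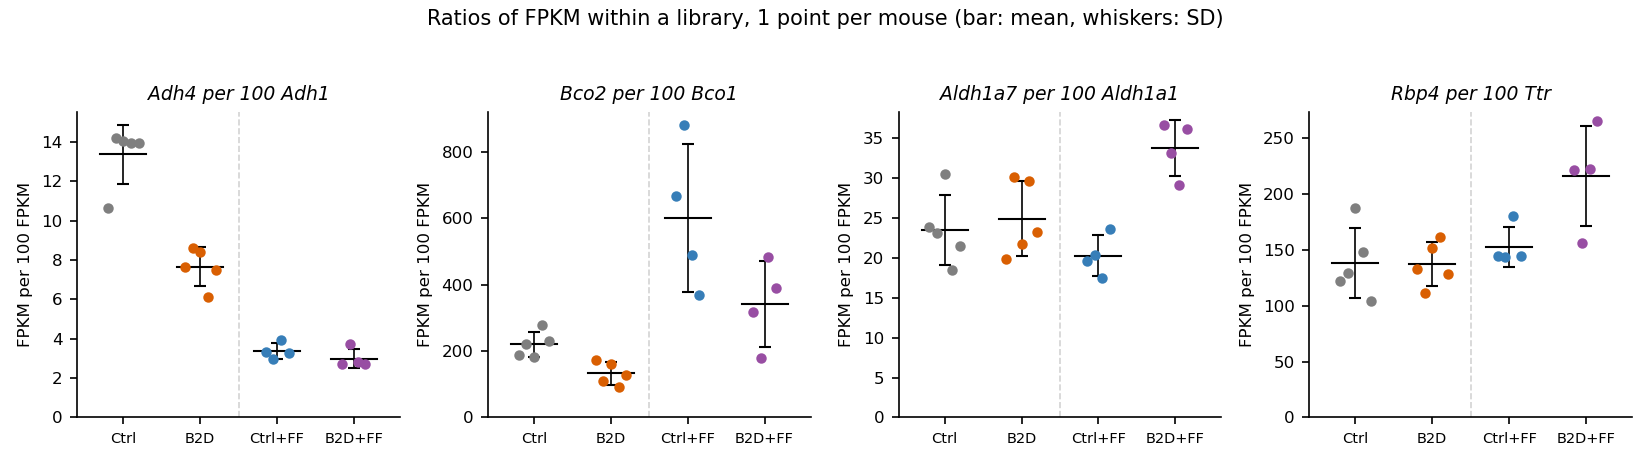
Ratios of FPKM within each library (y axis, FPKM of the first gene per 100 FPKM of the second, starting at 0), with groups on the x axis, a bar for the mean and whiskers for the SD. Adh4 per 100 Adh1 separates Ctrl (10.7 to 14.2) from B2D (6.11 to 8.63) but overlaps between the fenofibrate groups, and Aldh1a7 per 100 Aldh1a1 separates Ctrl+FF from B2D+FF.

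Aldh1a1 encodes a cytosolic retinal dehydrogenase that makes retinoic acid and also clears other aldehydes (ENSMUSG00000053279, plus strand, chr19:20492715-20643462). Ctrl mice held 221, 278, 180, 258 and 386 FPKM, and B2D mice 212, 127, 303, 213 and 199. The groups overlapped almost fully, with a log2 fold change of -0.33 (SE 0.235, 95% interval -0.84 to 0.18) that was -0.16 without B2D 2, -0.19 without Ctrl 5 and -0.48 without B2D 3. In the fenofibrate experiment Aldh1a1 was at 452, 394, 391 and 323 FPKM in the Ctrl+FF mice and at 305, 458, 304 and 320 in B2D+FF mice. There B2D+FF 2 held the highest value and the other 3 B2D+FF mice lay below every control, so that the log2 fold change of -0.18 (SE 0.160, 95% interval -0.54 to 0.18) became -0.32 without that mouse and -0.11 without Ctrl+FF 1. Means were 265 ± 77.4 and 211 ± 62.5 FPKM without fenofibrate (n = 5 mice per group, SD) and 390 ± 52.8 and 347 ± 74.5 FPKM with it (n = 4 mice per group, SD).

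Other retinal oxidases were described by the same fits. Aldh1a7, the neighbour and paralog of Aldh1a1, sits 49490 bases away on the opposite strand and shares no stretch of 150 bases with it. Its FPKM was 88.9, 80.5, 68.6 and 76.3 in Ctrl+FF and 112, 152, 88.5 and 116 in B2D+FF mice, a log2 fold change of 0.55 (SE 0.159, limma adjusted p = 0.0848) that did not pass the test. As a ratio, Aldh1a7 per 100 FPKM of Aldh1a1 was 20.3 ± 2.53 in Ctrl+FF and 33.8 ± 3.47 in B2D+FF (n = 4 mice per group, SD), without overlap, and 23.5 ± 4.43 and 25.0 ± 4.71 in Ctrl and B2D (n = 5 mice per group, SD), with overlap. Aox3 and Aox1 encode aldehyde oxidases, molybdenum enzymes that, like Retsat, carry FAD and can oxidize retinal. Aox3 averaged 37.7 FPKM in Ctrl and 21.3 in B2D (log2 fold change -0.91, SE 0.300, limma adjusted p = 0.140), and 14.3 in Ctrl+FF and 7.19 in B2D+FF (-1.07, SE 0.340, limma adjusted p = 0.110). Aox1 averaged 6.82 and 4.56 FPKM (-0.42, SE 0.234, limma adjusted p = 0.356) and then 7.93 and 7.42 FPKM (-0.09, SE 0.119, limma adjusted p = 0.721). Aldh1a2 and Aldh1a3 were below 0.31 FPKM in every library and were not tested.

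Rbp4 encodes the plasma carrier that leaves hepatocytes with retinol bound, in a complex with transthyretin (Ttr). It lies on the minus strand at chr19:38116620-38125321 (ENSMUSG00000024990) and was the most abundant of the 8 genes in all 4 groups. Ctrl mice held 3651, 4009, 3993, 4331 and 2825 FPKM, and B2D mice 4119, 3163, 2919, 3507 and 3078, a log2 fold change of -0.16 (SE 0.144, 95% interval -0.47 to 0.15) that was -0.26 without Ctrl 5 and -0.11 without Ctrl 4. With fenofibrate, values were 2686, 2594, 3033 and 2492 in Ctrl+FF and 3294, 2328, 3133 and 3274 in B2D+FF, a log2 fold change of 0.14 (SE 0.141, 95% interval -0.17 to 0.46) that was 0.10 without B2D+FF 1. The B2D+FF mice lay on both sides of the controls, 3 above them all and 1 below, and without B2D+FF 2 the log2 fold change was 0.26. Mean Rbp4 was 3762 ± 576 and 3357 ± 477 FPKM without fenofibrate (n = 5 mice per group, SD) and 2701 ± 235 and 3007 ± 459 FPKM with it (n = 4 mice per group, SD). Rbp4 was thus lower on average with B2D in one experiment and higher in the other, and the difference between the effects was 0.30 (SE 0.201, 95% interval -0.12 to 0.73). Rbp4 per 100 FPKM of Ttr was 138 ± 31.7 in Ctrl and 137 ± 19.9 in B2D (n = 5 mice per group, SD), and 153 ± 17.99 in Ctrl+FF and 216 ± 45.1 in B2D+FF (n = 4 mice per group, SD), with overlap in both experiments. Ttr, named after its values were seen, averaged 1769 FPKM with the control diet and fenofibrate and 1405 with B2D and fenofibrate (log2 fold change -0.34, SE 0.105, limma adjusted p = 0.104).

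Lrat encodes lecithin retinol acyltransferase, which makes the retinyl esters that stellate cells store (ENSMUSG00000028003, minus strand, chr3:82892579-82903973). Its level was 2.15, 1.89, 1.89, 2.27 and 2.06 FPKM in Ctrl and 1.27, 1.49, 3.41, 1.89 and 2.81 in B2D mice. The B2D mice spread far more widely than the Ctrl mice, with a coefficient of variation of 41.8% against 8.11%, and lay on both sides of them. The log2 fold change was 0.01 (SE 0.166, 95% interval -0.35 to 0.37), and its sign changed in 9 of 17 other settings, with -0.12 without B2D 3 and 0.12 without B2D 1. With fenofibrate, Lrat was at 2.51, 1.66, 2.68 and 1.84 FPKM in the Ctrl+FF mice and 2.12, 0.873, 1.68 and 1.27 in B2D+FF, with overlap, for a log2 fold change of -0.36 (SE 0.168, 95% interval -0.74 to 0.01) that was -0.24 without B2D+FF 2. Mean Lrat was 2.05 ± 0.166 and 2.17 ± 0.908 FPKM without fenofibrate (n = 5 mice per group, SD) and 2.17 ± 0.497 and 1.48 ± 0.535 FPKM with it (n = 4 mice per group, SD). In whole liver, fewer cells of a type and less RNA per cell cannot be told apart. The summed level of 14 stellate cell markers was between 82.0 and 130 FPKM in Ctrl, 108 and 150 in B2D, 68.9 and 88.3 in Ctrl+FF and 51.7 and 88.9 in B2D+FF. Of these markers 0 of 13 tested were called without fenofibrate, by limma or by voom, with 1 at an unadjusted p under 0.05. With fenofibrate 0 of 11 were called by either, with 0 at an unadjusted p under 0.05 by limma and 2 by voom.

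Retsat, the flavoprotein of the set (ENSMUSG00000056666, plus strand, chr6:72598475-72608425), did not differ between the diets beyond the spread of the mice. It was at 642, 725, 650, 606 and 733 FPKM in Ctrl and at 590, 656, 713, 656 and 549 FPKM in B2D mice. The means were 671 ± 55.3 and 633 ± 63.8 FPKM (n = 5 mice per group, SD), and the log2 fold change of -0.09 (SE 0.109, 95% interval -0.33 to 0.15) became 0.18 after quantile normalization, so no direction is given. With fenofibrate, the control mice lay close together at 1131, 1104, 1108 and 1050 FPKM, whereas the B2D+FF mice were at 1239, 802, 1201 and 1448, 1 below and 3 above all controls. The coefficient of variation was 3.14% in Ctrl+FF and 23.0% in B2D+FF, and the log2 fold change was 0.06 (SE 0.170, 95% interval -0.32 to 0.44), or 0.23 without B2D+FF 2. Without B2D+FF 4 the log2 fold change was -0.05, so no direction is given here either. Means were 1098 ± 34.5 and 1172 ± 270 FPKM (n = 4 mice per group, SD). Side by side and untested, all 8 mice given fenofibrate held more Retsat than any of the 10 without it, as they did for Adh1.

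**Figure D3:**
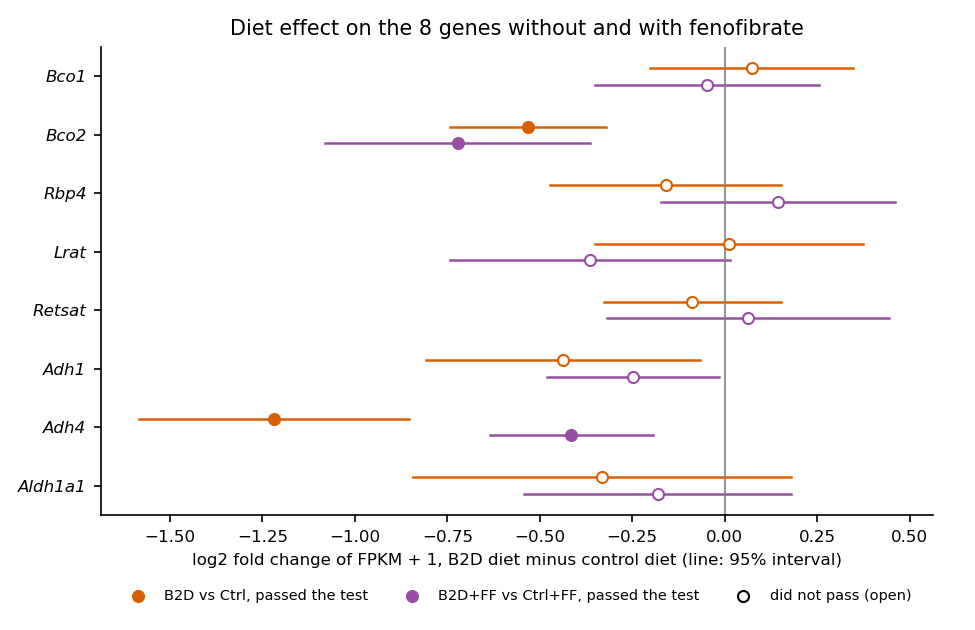
Log2 fold change of FPKM + 1 between diets (x axis) for each of the 8 genes (y axis) in both experiments, with 95% intervals as lines; filled points mark genes called at an adjusted p under 0.05 and open points those not called. Bco2 (-0.53 and -0.72) and Adh4 (-1.22 and -0.42) are filled in both experiments, and the intervals of Bco1, Rbp4, Lrat, Retsat and Aldh1a1 cross 0 in both.

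The median log2 fold change of the 8 genes was -0.25 in B2D versus Ctrl and -0.21 in B2D+FF versus Ctrl+FF. Over all genes tested it was -0.001 and 0.013. The 8 genes were listed with these results known, so nothing is read from their medians. Apart from Adh4, no difference between the 2 diet effects had a 95% interval that left out 0. For Bco2 the effects were -0.53 and -0.72, and their difference was -0.19 (SE 0.182, 95% interval -0.57 to 0.19). For Adh1 the difference was 0.19 (SE 0.213, 95% interval -0.26 to 0.64) and for Lrat -0.38 (SE 0.252, 95% interval -0.90 to 0.15).

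Over all groups pooled, the 3 enzymes of retinol and retinal oxidation tended to vary together from mouse to mouse. Adh1 departed from this in the B2D+FF group. There, B2D+FF 2 held the lowest Adh1 (688 FPKM) but the highest Adh4 (25.5 FPKM) and Aldh1a1 (458 FPKM). The correlations that follow pool both experiments. After subtraction of the group means, log2 levels over the 18 libraries correlated at Pearson's r of 0.82 between Adh4 and Aldh1a1, 0.68 between Adh1 and Aldh1a1 and 0.66 between Adh1 and Adh4. These are descriptions over libraries that share a scaling, and the other 25 pairs lay between -0.52 (Bco1 and Rbp4) and 0.47 (Bco2 and Adh1). The same mice stood at the ends of their groups for several genes. Ctrl 3 was the lowest Ctrl mouse for 5 of the 8 genes, B2D 3 the highest B2D mouse for 5, and B2D+FF 2 was at one end or the other for 7.

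Among 9937 protein-coding genes, those whose deviations from the group means were most like each member's over the 18 libraries were as follows. For Adh4 they were Ugt2b5 (r 0.90), Yes1 (0.86) and Nadk2 (0.86), for Adh1 Pcyox1 (0.90), Akr1c12 (0.90) and Itgb1 (0.88), and for Aldh1a1 Polr3b (0.90), Sae1 (0.90) and Hpgd (0.89). Retsat was closest to Clstn3 (0.89), Adipor2 (0.88) and Abhd6 (0.84), and Rbp4 to Cmtm8 (0.89), Tmem205 (0.88) and Tmem53 (0.88). Bco2 was closest to Mettl8 (0.86), Gimap4 (0.86) and Brd3 (0.84), Bco1 to Appbp2, Tmem14a and Mrps2 (0.75, 0.75 and 0.74), and Lrat to Ednra, Sirpa and Lum (0.87, 0.83 and 0.83). Some of these relations were weaker in the fenofibrate mice, where the r of Adh4 was 0.40 with Ugt2b5 and 0.50 with Nadk2, against 0.95 and 0.93 in mice without fenofibrate.

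Around the 8 genes, 80 other genes of retinoid metabolism were listed by role, of which 79 were in the tables and 57 were tested in B2D versus Ctrl. In that comparison 4 of the 57 fell and 0 rose, where 1.94% of all genes tested were called lower and 0.769% higher. The 4 were Ces3a, Ces3b, Ces1f and Akr1c6, and at an unadjusted p under 0.05 there were 14 lower and 7 higher, against 10.1% and 8.24% of all genes tested. With fenofibrate, 6 of 56 fell (Ces3a, Ces3b, Lipc, Akr1c6, Ugt2b1 and Rarres1) and 2 rose (Pnpla2 and Cyp3a11), where 2.21% of all genes tested were called lower and 2.24% higher. At an unadjusted p under 0.05 there were 11 lower and 9 higher, against 9.93% and 11.3% of all genes tested. The median log2 fold change of the tested genes was -0.12 and -0.09. In the difference of the diet effects 0 of 57 were called by limma or by voom, with 10 and 11 at an unadjusted p under 0.05, against 11.9% of all genes tested by limma. These lists were chosen with earlier results known, so nothing is read from the counts.

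In retinyl ester formation and hydrolysis, limma called 3 of 13 tested genes lower without fenofibrate, and 3 lower and 1 higher with it. Of all genes tested, 1.94% were called lower without fenofibrate, and 2.21% lower and 2.24% higher with it. Voom called 4 of the 13 lower without fenofibrate, and 3 lower and 2 higher with it. As for the other lists, nothing is read from these counts. Ces3a and Ces3b are carboxylesterases, a family with broad activity on lipid and drug esters as well as retinyl esters. Ces3a was at 529, 674, 395, 729 and 522 FPKM in Ctrl and at 263, 215, 320, 202 and 271 in B2D mice, and at 367, 295, 389 and 244 in Ctrl+FF and 116, 110, 123 and 102 in B2D+FF mice. No B2D mouse overlapped a control mouse in either experiment, and the log2 fold changes were -1.15 (SE 0.180, limma adjusted p = 0.00892) and -1.49 (SE 0.152, limma adjusted p = 0.00215), called in all 18 and 16 other settings. Ces3b, which shares about 2% of its 150-base stretches with Ces3a, fell from 153 to 67.7 FPKM (log2 fold change -1.18, SE 0.232, limma adjusted p = 0.0230) and from 59.8 to 21.0 FPKM (-1.54, SE 0.258, limma adjusted p = 0.0145), calls kept in 13 of 18 and 15 of 16 other settings. Ces1f fell without fenofibrate (-0.996, SE 0.221, limma adjusted p = 0.0367, called in 9 of 18 other settings) and with fenofibrate was at 157 and 139 FPKM (-0.17, SE 0.104, limma adjusted p = 0.384). Its difference between the effects, 0.83 (SE 0.278, limma adjusted p = 0.240), did not pass.

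Among mice given fenofibrate, Lipc, hepatic lipase, and Pnpla2, the main triglyceride lipase of lipid droplets, differed between the diets in opposite directions. Lipc fell from 44.4 to 28.8 FPKM (-0.61, SE 0.142, limma adjusted p = 0.0448) and Pnpla2 rose from 101.3 to 176 FPKM (0.78, SE 0.147, limma adjusted p = 0.0203). Without fenofibrate the values were -0.50 (SE 0.142, limma adjusted p = 0.0927) and 0.32 (SE 0.157, limma adjusted p = 0.303). The Lipc and Pnpla2 calls were lost in 7 of 16 and 6 of 16 other settings.

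Of 17 tested retinol dehydrogenases and retinal reductases, limma called 1 in each comparison. Voom called 1 lower without fenofibrate, and 2 lower and 1 higher with it. The limma call was in both cases Akr1c6, an aldo-keto reductase better known for steroids. Akr1c6 fell from 416 to 146 FPKM (log2 fold change -1.51, SE 0.230, limma adjusted p = 0.00734) and from 271 to 131 FPKM (-1.06, SE 0.252, limma adjusted p = 0.0487). The first of these calls was kept in 18 of 18 other settings and the second in 8 of 16.

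Among genes of retinoic acid breakdown, 0 of 6 were called without fenofibrate by limma or voom, with 3 at an unadjusted p under 0.05, and 1 lower and 1 higher of 5 with it. Ugt2b1, a glucuronosyltransferase, fell from 23.5 to 7.44 FPKM with fenofibrate (-1.70, SE 0.347, limma adjusted p = 0.0277) and was at 167 and 91.8 FPKM without it (-0.95, SE 0.280, limma adjusted p = 0.103). Cyp3a11, a cytochrome P450 of drug and steroid oxidation, rose from 603 to 1023 FPKM (0.76, SE 0.165, limma adjusted p = 0.0355), with 0.08 (SE 0.226, limma adjusted p = 0.889) in the first experiment. With fenofibrate, the Ugt2b1 call was kept in 10 of 16 other settings and in 3 of 8 fits with a library left out, and the Cyp3a11 call in 8 of 16 and 2 of 8. Cyp26a1, the main retinoic acid hydroxylase and a retinoic acid target, lay outside the rule for named genes and is given after its values were seen. It was at 0.412, 0.454, 0.744, 0.796 and 0.566 FPKM in Ctrl mice and at 1.87, 1.95, 0.546, 0.901 and 1.51 in B2D mice, from 13 to 61 reads, and did not pass the test (log2 fold change 0.53, SE 0.174, limma adjusted p = 0.139). In the fenofibrate experiment Cyp26a1 was below the filter and not tested. It averaged 0.169 FPKM in Ctrl+FF (3 to 8 reads) and 0.550 in B2D+FF (6 to 37 reads).

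The 8 response genes of retinoic acid that were tested gave 0 calls without fenofibrate by limma or voom, with 1 at an unadjusted p under 0.05. With fenofibrate limma called 1 of 7, Rarres1, and voom called 2 lower. Rarres1 fell from 67.1 to 27.8 FPKM (-1.24, SE 0.220, limma adjusted p = 0.0171), a call kept in 13 of 16 other settings. Without fenofibrate Rarres1 had -0.49 (SE 0.286, limma adjusted p = 0.381). Retinoic acid receptors, 5 tested, gave 0 calls in either comparison by either method, with 1 at an unadjusted p under 0.05 in each. The 4 tested genes of retinoid binding and transport gave 0 calls by limma in either comparison, with 1 and 2 at an unadjusted p under 0.05, and 1 higher by voom without fenofibrate. The 4 retinal oxidases and the 4 genes of carotenoid uptake gave 0 calls by either method, with 1 of each list at an unadjusted p under 0.05 without fenofibrate and 2 of each with it.

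**Figure D4:**
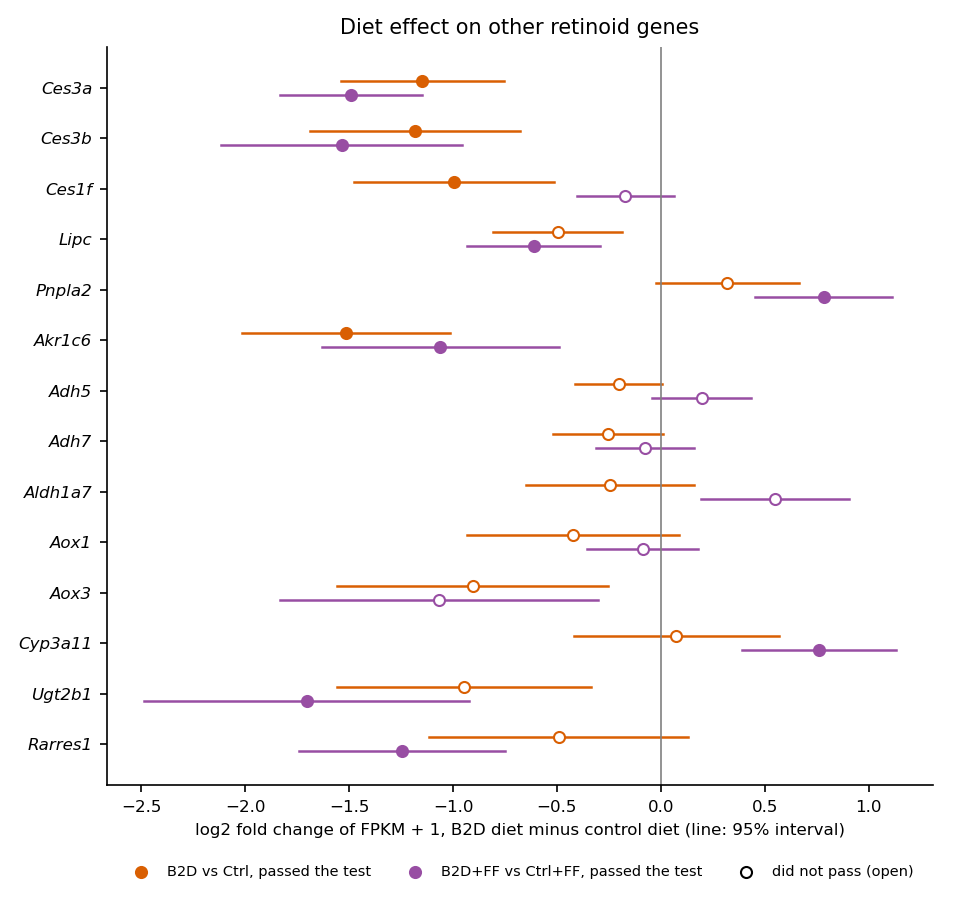
Log2 fold change of FPKM + 1 between diets (x axis) for the other retinoid genes named in the text (y axis), with 95% intervals as lines, filled where the gene passed the test. Ces3a, Ces3b and Akr1c6 are filled and below 0 in both experiments, and Pnpla2 and Cyp3a11 are filled above 0 with fenofibrate.

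The libraries carried the markers of liver. The summed level of 7 hepatocyte markers ran from 37661 to 50096 FPKM in Ctrl and 37510 to 53267 in B2D, but from 35720 to 37405 in Ctrl+FF and 27498 to 33608 in B2D+FF, where the groups did not overlap. Of the 7, Serpina1c was called lower in B2D+FF than in Ctrl+FF. Relative to albumin (Alb), Adh4 was lower in every B2D mouse (0.0985 to 0.165 per 100 FPKM of Alb) than in every Ctrl mouse (0.264 to 0.338), while with fenofibrate the ratios overlapped (0.181 to 0.213 and 0.175 to 0.193). Alb is 1 of those 7 markers, whose sum was lower in B2D+FF than in Ctrl+FF. With fenofibrate, a ratio to Alb therefore does not set Adh4 apart from that difference. The summed PPARα targets, a check of the drug label, ran from 6678 to 10027 FPKM in Ctrl and 9244 to 14422 in B2D. With fenofibrate they ran from 16486 to 20828 FPKM in Ctrl+FF and 15482 to 26594 in B2D+FF. Of the 7 targets tested in B2D versus Ctrl, limma called 0 and voom 3 higher, with 3 higher at an unadjusted p under 0.05 by limma. Of other markers, the Kupffer cell gene Clec4f was called lower in B2D than in Ctrl (1 of 8 tested). The erythroid gene Alas2 was called lower with the B2D diet in both comparisons (1 of 5). In B2D+FF versus Ctrl+FF, Lyve1 of 7 endothelial markers was called higher. So was Apoa4 of 2 tested intestinal markers, a gene that liver also expresses. The adipocyte gene Cfd, the 1 adipocyte marker tested there, was called lower in B2D+FF than in Ctrl+FF. Summed adipocyte markers were 6.28 to 22.7 FPKM in Ctrl+FF and 0.628 to 4.52 in B2D+FF. Without fenofibrate these sums were 0.146 to 0.784 FPKM in Ctrl and 0.114 to 0.413 in 4 B2D mice but 37.1 in B2D 2. Without B2D 2, the log2 fold changes of B2D versus Ctrl were -1.17 for Adh4 and -0.49 for Bco2, both still called. Summed pancreas markers were at most 0.401 FPKM and lymphocyte markers at most 2.10 FPKM, and limma and voom called 0 of 3 cholangiocyte markers without fenofibrate and 0 of 2 with it, with 0 and 1 at an unadjusted p under 0.05. The part of the other markers in the differences of Adh4 and Bco2 was not tested.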

How the data were processed

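Liver RNA of 18 mice, 1 library each, was sequenced by the authors on an Illumina NovaSeq after NEBNext Ultra preparation, a kit that does not mark strand. Per the labels and methods, the authors aligned reads with STAR to mm10, counted them with featureCounts, compared groups with DESeq2 and deposited FPKM values in 2 tables, 1 per experiment (the methods name RPKM). The strand setting of the counting is not given in the sources used here. Every FPKM value was a whole multiple of its library's step within 0.01 reads (100% of values), which gave the reads behind each value and library totals of 15320729 to 21898502.

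FPKM were tested within each table as log2(FPKM + 1) with limma 3.58.1 (lmFit and eBayes with trend, R 4.3.3) over genes with a mean of at least 0.5 FPKM, with Benjamini-Hochberg adjustment over every gene tested, and genes under 0.05 were called. The difference of the diet effects was a contrast in 1 fit of all 18 libraries. Tables and figures used pandas 2.3.3, numpy 2.4.6, scipy 1.17.1 and matplotlib 3.10.9. Tested on simulated data with 200 genes changed by 1 on the log2 scale, the fit recovered 94.5% for B2D versus Ctrl (10 false calls, 11576 genes), 98% for B2D+FF versus Ctrl+FF (17, 11882 genes) and 81.5% for the difference (7, 11871 genes).

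The 8 genes, the other retinoid lists and the cell type marker lists were chosen with earlier results of these data known. The text names all 8 genes, other retinoid genes called in any comparison (at most 12 each), Aox1 and Aox3, paralogs of Aldh1a1, neighbours of Adh4, and the 3 protein-coding genes most correlated with each of the 8. Ttr, Cyp26a1, Adh6-ps1 and single markers were named after their values were seen. Groups came from the sample labels. Replicate numbers were given in accession order, and p-values set a difference between diets against the spread between mice, moderated over all genes. Alternatives were a pseudocount of 0.1, no filter, a mean of at least 5 FPKM, upper-quartile and quantile scaling, array weights, all 4 groups in 1 fit, limma voom on the recovered reads, and leaving out each library. Promoters came from RefSeq (GRCm38.p6).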

Additional observations from a re-analysis of the deposited data

Results flagged for a closer look

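In 88 groups of 4 or 5 mice tested for a sample far from the others, 7 held one, and chance alone flags about 1 in 20. Among the 8 genes, Adh1 stood at 405 FPKM in Ctrl 3, with the nearest Ctrl mouse at 605. Adh4 stood at 45.0 FPKM in B2D 3, with the nearest B2D mouse at 31.9. Rbp4 was at 2328 FPKM in B2D+FF 2 with the nearest mouse of its group at 3133, and Aldh1a1 was at 458 FPKM in the same mouse with the nearest at 320.

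Among the other retinoid genes, Rarres1 was at 73.4 FPKM in Ctrl 4, with the nearest Ctrl mouse at 46.2. Adh5 was at 58.4 FPKM in B2D 4 with the nearest at 48.5, and Adh7 at 6.26 FPKM in B2D 3 with the nearest at 5.07.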

How the results depend on the processing

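Adh4 and Bco2 were lower with the B2D diet in every fit run in both experiments, although not always called. The 313 genes called in B2D versus Ctrl became 67 with no filter, 208 with upper-quartile scaling and 731 with all 4 groups in 1 fit, and 98 (without Ctrl 4) to 332 (without Ctrl 3) with a library left out. Counts also moved by over 1.5 times without Ctrl 1 (153), Ctrl 2 (109), B2D 2 (161) and B2D 4 (148). The 529 of B2D+FF versus Ctrl+FF became 272 with no filter and 885 with array weights, and 175 (without Ctrl+FF 1) to 596 (without B2D+FF 3) with a library left out, with 188 without Ctrl+FF 2, 242 without Ctrl+FF 3, 302 without B2D+FF 1 and 298 without B2D+FF 4. Upper-quartile scaling gave 347 lower and 213 higher there, 38.0% higher against 50.3% in the reported fit. The 27 genes of the difference became 16 with a pseudocount of 0.1, 136 with array weights and 13 with voom, and 17 (without Ctrl+FF 2) to 66 (without B2D 1), with 42 without Ctrl 5. Of the 8 genes, the 2 called in B2D versus Ctrl became 1 with no filter and 1 with a mean of at least 5 FPKM, which removes Bco2 from the test, and stayed 2 with each library left out. The 2 called with fenofibrate became 0 with no filter, 1 with the mean of at least 5 FPKM, 1 with all 4 groups in 1 fit, and 0 to 1 with a library left out, Bco2 without B2D+FF 3 and Adh4 without B2D+FF 2. In the difference, 0 became 1 (Adh4) with array weights and 0 to 1 with a library left out, called without B2D 3. The 4 other retinoid genes called in B2D versus Ctrl became 2 with no filter, 7 with array weights and 7 with all 4 groups in 1 fit, and 2 (without Ctrl 1, Ctrl 2 or Ctrl 4) to 7 (without B2D 3). The 8 called with fenofibrate became 2 with no filter, and 1 (without Ctrl+FF 1) to 9 (without B2D+FF 3), with 3 without Ctrl+FF 2, Ctrl+FF 3 or B2D+FF 4 and 5 without B2D+FF 1. The cause of these moves was not tested, except that no filter and the higher minimum change which genes are tested. No paired analysis was possible because the labels number each mouse on its own and replicate numbers only follow accession order. Between 24 and 180 reads per library lay behind Bco1 and 74 to 292 behind Bco2.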
